A study of Mus musculus with 48 samples.

Results

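Klra8, Klrk1, Gzma, Gzmb, Prf1 and Xcl1 are 6 of the 547 endogenous genes counted by a NanoString nCounter mouse immunology panel, which counts barcoded probes on RNA without amplification. They were chosen by gene symbol as natural killer and cytotoxic genes: a pair of activating receptors, 3 cytotoxic effectors and a chemokine. All 6 entered the tests, which took the 491 genes whose counts averaged 10 or more. Gzmb and Prf1 are the dimmest of the 6.

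RNA came from the epididymal fat pad, a visceral white fat depot, of inbred C3H/HeOuJ mice fed for 6 months. The design text describes free access to the feeds. Chow was the control (n = 8). Each of the 5 fat-rich feeds took 42% of its calories from fat and 42% from carbohydrate. The 4 custom feeds paired a carbohydrate, sucrose or starch, with palmitate (saturated) or oleate (monounsaturated). Starch/oleate and sucrose/oleate were fed to n = 9 each, sucrose/palmitate to n = 8 and starch/palmitate to n = 7. The remaining group ate a commercial Western diet (n = 7). Samples were whole tissue, so fewer cells of a type and less RNA per cell cannot be told apart. The labels give the samples as separate samples of a diet without naming animals, and p-values measure the spread between them.

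Natural killer cells are innate lymphocytes that kill stressed or infected cells and release cytokines without prior priming. They decide by weighing activating against inhibitory receptors. Klra8 (Ly49H in C57BL/6 mice) is an activating receptor of the Ly49 family that signals through the adaptor Tyrobp (DAP12), and Klrk1 (NKG2D) senses stress ligands and signals mainly through Hcst (DAP10). Perforin, the product of Prf1, opens pores through which the granule proteases granzyme A and granzyme B enter the target cell. Granzyme B activates caspases, and granzyme A is a tryptase. Xcl1, lymphotactin, attracts the dendritic cells that carry its receptor Xcr1. Klrk1, the granzymes, perforin and Xcl1 are also made by CD8 T cells. In mouse visceral fat, natural killer cells are known as a source of interferon gamma in obesity.

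The 6 genes lie on 5 chromosomes, and the receptor genes Klra8 and Klrk1 share the natural killer gene complex on chromosome 6. Their promoters (RefSeq, GRCm38.p6, a reference genome of another strain) were taken from 250 bases before to 50 after each start. They are shown for the receptors, for the chemokine Xcl1 and for Gzmb. Gzmb had the smallest adjusted p against chow of the effectors on starch/oleate, on counts close to background. Klra8 spans chr6:130129849-130130148 (minus strand), Klrk1 chr6:129623815-129624114 (minus), Gzmb chr14:56262285-56262584 (minus) and Xcl1 chr1:164935473-164935772 (minus). Capitals mark the letters TGTGGT (RUNX), TGANTCA (AP-1), TTCNNNGAA (STAT) and GGTGTGA (T-box), searched on both strands.
Klra8: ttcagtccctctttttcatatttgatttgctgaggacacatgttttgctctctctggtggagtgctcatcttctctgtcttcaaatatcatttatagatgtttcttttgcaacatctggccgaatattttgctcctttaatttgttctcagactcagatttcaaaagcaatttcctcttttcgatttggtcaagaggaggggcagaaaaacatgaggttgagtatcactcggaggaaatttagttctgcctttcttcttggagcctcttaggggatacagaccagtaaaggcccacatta
Klrk1: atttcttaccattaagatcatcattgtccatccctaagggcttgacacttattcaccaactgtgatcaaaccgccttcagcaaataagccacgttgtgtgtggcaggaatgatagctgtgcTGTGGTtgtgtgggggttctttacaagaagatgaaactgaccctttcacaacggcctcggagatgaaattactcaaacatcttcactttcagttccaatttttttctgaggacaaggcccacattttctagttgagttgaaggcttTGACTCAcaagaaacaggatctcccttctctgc
Gzmb: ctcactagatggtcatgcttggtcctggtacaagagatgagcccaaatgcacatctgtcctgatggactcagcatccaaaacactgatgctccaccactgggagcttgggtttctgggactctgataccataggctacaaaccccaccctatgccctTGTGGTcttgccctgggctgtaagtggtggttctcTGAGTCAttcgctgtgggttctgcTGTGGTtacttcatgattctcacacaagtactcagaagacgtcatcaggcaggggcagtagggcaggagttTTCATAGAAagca
Xcl1: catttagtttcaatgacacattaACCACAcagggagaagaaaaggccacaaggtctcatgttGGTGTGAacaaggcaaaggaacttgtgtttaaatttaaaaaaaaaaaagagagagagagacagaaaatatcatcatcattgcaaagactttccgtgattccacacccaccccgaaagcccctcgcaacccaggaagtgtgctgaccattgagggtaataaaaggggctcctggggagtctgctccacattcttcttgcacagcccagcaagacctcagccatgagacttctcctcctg
No searched motif overlapped another in these windows. The RUNX letters stood in the promoters of Klrk1, Gzma, Gzmb, Prf1 and Xcl1, which is 5 of 7 promoter windows of the 6 genes, against 16.8% of 32841 mouse promoters. Gzmb held the RUNX letters at 93 and 34 bases before its start, and also the AP-1 and STAT letters. The T-box letters stood only in the Xcl1 window among these 7, against 3.98% of all promoters. Both RefSeq windows of Klra8 held none of the 4 motifs, which says only that these letters are not in these windows.

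The libraries held 396391 to 888687 counts in all. Each library was scaled by its geometric mean over the 14 reference genes of the panel, of which 1, 4, 5, 9 and 7 themselves passed the test against chow on sucrose/palmitate, starch/palmitate, sucrose/oleate, starch/oleate and the Western diet. On this scale the median of all 491 genes was above chow by 0.203, 0.243, 0.194, 0.344 and 0.254 (log2), in the same order, and by at most 0.0805 when libraries were scaled to all genes with TMM (edgeR's trimmed mean of M-values). TMM moved the split of genes higher and lower than chow from 73 and 11 to 34 and 29, from 101 and 23 to 72 and 55, from 142 and 38 to 106 and 76, from 237 and 59 to 156 and 127, and from 161 and 39 to 101 and 70. The assay's positive controls differed by diet too: the ratio of the strongest to the next positive control was 3.17 to 3.39 on chow, and below that range in every starch/palmitate (2.92 to 3.16) and sucrose/oleate (2.92 to 3.07) library. Its part in the results was not tested beyond a fit with that ratio as a covariate. On both of those feeds the ratio did not overlap chow, so ratio and diet cannot be told apart there. Starch/palmitate replicate 3 and Western diet replicate 2 stood apart by high counts of epithelial genes.

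The 6 genes were counted above chow most often on starch/oleate, where all of them passed the test (edgeR's quasi-likelihood test, p adjusted by Benjamini-Hochberg over the 491 genes, threshold 0.05), against a background of 48.3% of all genes tested. On sucrose/oleate 4 of 6 rose (Klra8, Klrk1, Gzma and Xcl1; background 28.9%), and on starch/palmitate 4 of 6 (Klra8, Klrk1, Prf1 and Xcl1; background 20.6%). On the Western diet 3 rose (Klra8, Klrk1 and Xcl1; background 32.8%). On sucrose/palmitate 2 rose (Klra8 and Gzma; background 14.9%). None fell against chow on any feed, while 2.24%, 4.68%, 7.74%, 12% and 7.94% of all genes fell on sucrose/palmitate, starch/palmitate, sucrose/oleate, starch/oleate and the Western diet. The median log2 difference of the 6 genes from chow was 0.575, 0.695, 0.723, 1.1 and 0.514 for sucrose/palmitate, starch/palmitate, sucrose/oleate, starch/oleate and the Western diet. These comparisons share the chow samples.

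Klra8, the Ly49 receptor, had the largest fitted rise of the 6 genes on both oleate feeds and on the Western diet. Its scaled counts on chow were 19.3 at the lowest, 39.96 at the median and 70.2 at the highest. On starch/oleate they were 113, 186 and 250, and on sucrose/oleate 104, 134 and 161. Every oleate fat pad therefore lay above every chow pad, as 19.6% of all genes did on starch/oleate and 5.3% on sucrose/oleate. Western diet pads ran from 44.6 through a median of 98.4 to 146, with 6 of 7 above the highest chow pad. The palmitate feeds overlapped chow: sucrose/palmitate gave 44.6, 68.6 and 107, and starch/palmitate 37.5, 69.1 and 114, with 3 pads of each above the highest chow pad. The log2 difference from chow was 2.09 ± 0.24 (SE, adjusted p = 2.74e-09, 4.26-fold) on starch/oleate and 1.63 ± 0.24 (adjusted p = 2.2e-06, 3.09-fold) on sucrose/oleate. On the Western diet it was 1.21 ± 0.25 (adjusted p = 0.000177, 2.32-fold). These exceed the median of all genes by 1.75, 1.43 and 0.96. With palmitate the differences were 0.74 ± 0.24 (adjusted p = 0.0341) with sucrose and 0.70 ± 0.25 (adjusted p = 0.0325) with starch. The sucrose/palmitate call missed the threshold under TMM (0.60, adjusted p = 0.0524). Both were lost when any of 7 libraries was left out: chow replicates 2, 3, 4 or 6 and, for sucrose, sucrose/palmitate replicates 1, 5 or 7 (0.63 to 0.75), or, for starch, starch/palmitate replicates 4, 5 or 6 (0.54 to 0.68). After adding the positive-control ratio to the fit they were 0.65 (adjusted p = 0.0799) and 0.44 (adjusted p = 0.516), while the other feeds kept the call.

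Ly49 genes are similar in sequence and differ in number between inbred strains. RefSeq lists 13 Klra genes in the reference strain, and the panel counts 6 others, whose group means were near or below the negative controls, except Klra7 at 12.5 to 19.8. Which family members the Klra8 probe binds in C3H/HeOuJ RNA was not tested, and the signal is that of the Klra8 probe.

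Klrk1, the NKG2D receptor, rose on 4 of the 5 feeds. Chow pads ran from 24.1 through a median of 41.6 to 68.3. Starch/oleate pads ran from 61.3 through 94.3 to 144, and 7 of 9 lay above every chow pad. Starch/palmitate pads ran from 41.003 through 70.5 to 157, with 4 of 7 above the highest chow pad. The medians on sucrose/palmitate, sucrose/oleate and the Western diet were 68.7, 62.9 and 71.3, and these groups overlapped chow. Klrk1 rose by 1.15 ± 0.22 (log2, adjusted p = 1.81e-05) on starch/oleate, 0.95 ± 0.23 (adjusted p = 0.00276) on starch/palmitate, 0.71 ± 0.23 (adjusted p = 0.0112) on the Western diet and 0.59 ± 0.22 (adjusted p = 0.0286) on sucrose/oleate. On sucrose/palmitate the difference was 0.61 ± 0.22 (adjusted p = 0.0519). The sucrose/oleate call was lost without chow replicates 4, 6 or 8 or sucrose/oleate replicate 7 (0.50 to 0.57). TMM left it at 0.43 (adjusted p = 0.0510). It was also lost, as was the starch/palmitate call, once the positive-control ratio entered the fit (0.24, adjusted p = 0.632, and 0.62, adjusted p = 0.266).

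Xcl1, the chemokine, followed the order chow, sucrose/palmitate, Western diet, starch/palmitate, sucrose/oleate, starch/oleate in its mean scaled count. Its counts on chow were 21.1 at the lowest, 32.1 at the median and 45.8 at the highest. On starch/oleate they were 46.3, 75.7 and 114, so that every pad lay above every chow pad, as for 19.6% of all genes. Sucrose/oleate gave 39.4, 60.1 and 78.5, with 8 of 9 above the highest chow pad. Starch/palmitate gave 38.6, 51.4 and 76.8, and the Western diet 33.1, 43.7 and 89.9. The log2 difference from chow was 1.20 ± 0.20 (adjusted p = 2.21e-06) on starch/oleate, 0.82 ± 0.20 (adjusted p = 0.00104) on sucrose/oleate, 0.69 ± 0.21 (adjusted p = 0.0132) on starch/palmitate and 0.63 ± 0.21 (adjusted p = 0.0135) on the Western diet. It was 0.40 ± 0.20 (adjusted p = 0.155) on sucrose/palmitate. The Western diet call was lost without its replicate 5 (0.44, adjusted p = 0.0812) and with TMM scaling (0.42, adjusted p = 0.0543). Adjusted for the positive-control ratio, the sucrose/oleate and starch/palmitate differences were 0.59 (adjusted p = 0.249) and 0.48 (adjusted p = 0.373). Xcr1, the receptor of Xcl1, passed against chow only on starch/palmitate among the 5 feeds, by 0.53 ± 0.20 (adjusted p = 0.0451).

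**Figure D1:**
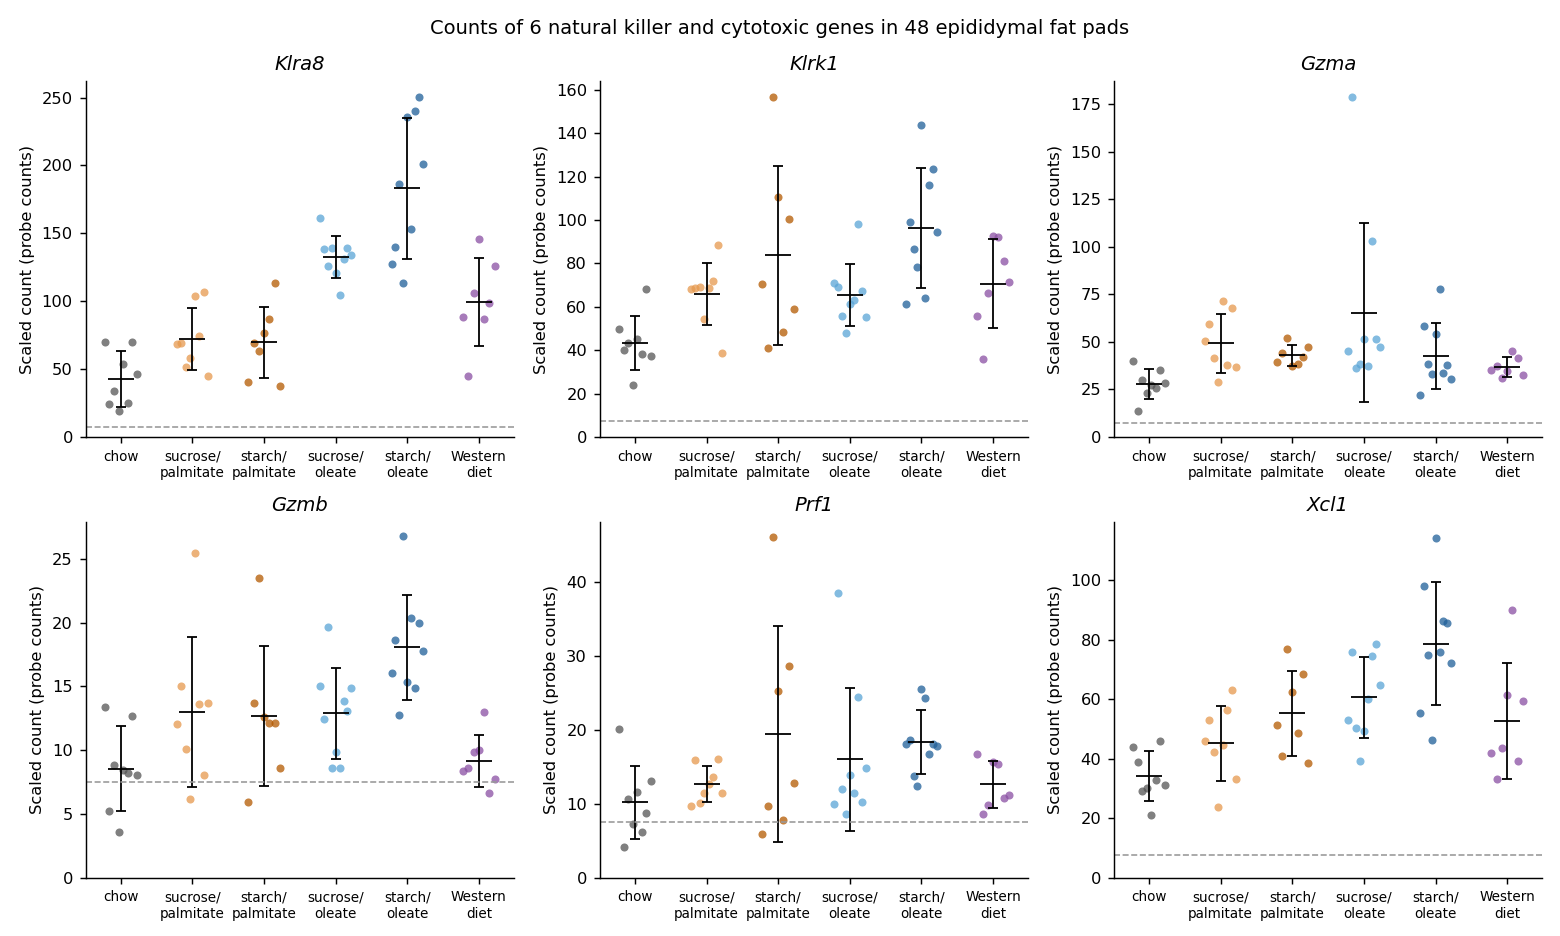
Scaled counts of the 6 genes (y axes, probe counts) in each of 48 fat pads (points), by diet (x axes). Black bars are the group mean ± SD and the dashed line is the mean of the negative control probes, 7.51. All oleate pads lie above all chow pads for Klra8, while Gzmb and Prf1 sit close to the dashed line.

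Of the cytotoxic effectors, only Gzma stood clear of the assay's background. Gzmb and Prf1 exceeded the highest negative control of their own library in only 22 and 26 of 48 libraries, against 47 for Gzma and 48 each for Klra8, Klrk1 and Xcl1. Gzma, the tryptase, had chow counts of 13.7 at the lowest, 27.8 at the median and 40.2 at the highest. On sucrose/oleate these were 36.1, 47.2 and 179, and on sucrose/palmitate 28.99, 45.99 and 71.7. Both groups overlapped chow. Gzma rose by 1.22 ± 0.26 (log2, adjusted p = 0.000322) on sucrose/oleate, where replicate 2 held the 179 and the difference without it was 0.87 (adjusted p = 0.00182). Adjusted for the positive-control ratio it was 1.20 (adjusted p = 0.0593). On sucrose/palmitate Gzma rose by 0.80 ± 0.27 (adjusted p = 0.0347) and on starch/oleate by 0.61 ± 0.26 (adjusted p = 0.0401). TMM scaling ended both calls (0.64, adjusted p = 0.0725, and 0.29, adjusted p = 0.299). The first was also lost without chow replicates 2, 4, 6 or 8 or sucrose/palmitate replicates 1, 2, 5 or 7 (0.70 to 0.81), and the second without chow replicates 2, 4, 5, 6 or 8 or starch/oleate replicates 2, 5 or 6 (0.45 to 0.61). The differences were 0.61 ± 0.27 (adjusted p = 0.0875) on starch/palmitate and 0.40 ± 0.28 (adjusted p = 0.256) on the Western diet.

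Gzmb, the caspase-activating protease, passed only on starch/oleate among the 5 feeds. Its scaled counts there were 12.8 at the lowest, 17.8 at the median and 26.8 at the highest, against 3.62, 8.34 and 13.4 on chow, and 8 of 9 pads lay above the highest chow pad. The log2 difference was 1.05 ± 0.23 (adjusted p = 0.000133), and 0.75 (adjusted p = 0.00288) under TMM. On the Western diet it was 0.08 ± 0.26 (adjusted p = 0.834), with no pad above the highest chow pad. Only 2 of 8 chow libraries held Gzmb above their highest negative control, against 7 of 9 on starch/oleate, so the size of the rise rests on counts close to background.

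Prf1, the pore former, had chow counts of 4.21 at the lowest, 9.68 at the median and 20.1 at the highest. Starch/oleate gave 12.4, 18.1 and 25.5, and starch/palmitate 5.97, 12.9 and 46.1, both overlapping chow. Prf1 rose by 0.82 ± 0.31 (adjusted p = 0.0197) on starch/oleate and by 0.91 ± 0.32 (adjusted p = 0.0334) on starch/palmitate. TMM scaling ended both calls (0.51, adjusted p = 0.109, and 0.71, adjusted p = 0.0643). The starch/palmitate call was lost without chow replicates 2, 4 or 6 or starch/palmitate replicates 3, 4 or 6 (0.54 to 0.85), and the lowest of these values came without replicate 3, the library high in epithelial genes. Prf1 also missed the test of any difference among the 6 diets (adjusted p = 0.0687), which 64.8% of all genes passed. The other 5 genes passed it, from Klra8 (adjusted p = 1.11e-08) to Gzma (adjusted p = 0.00237).

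**Figure D2:**
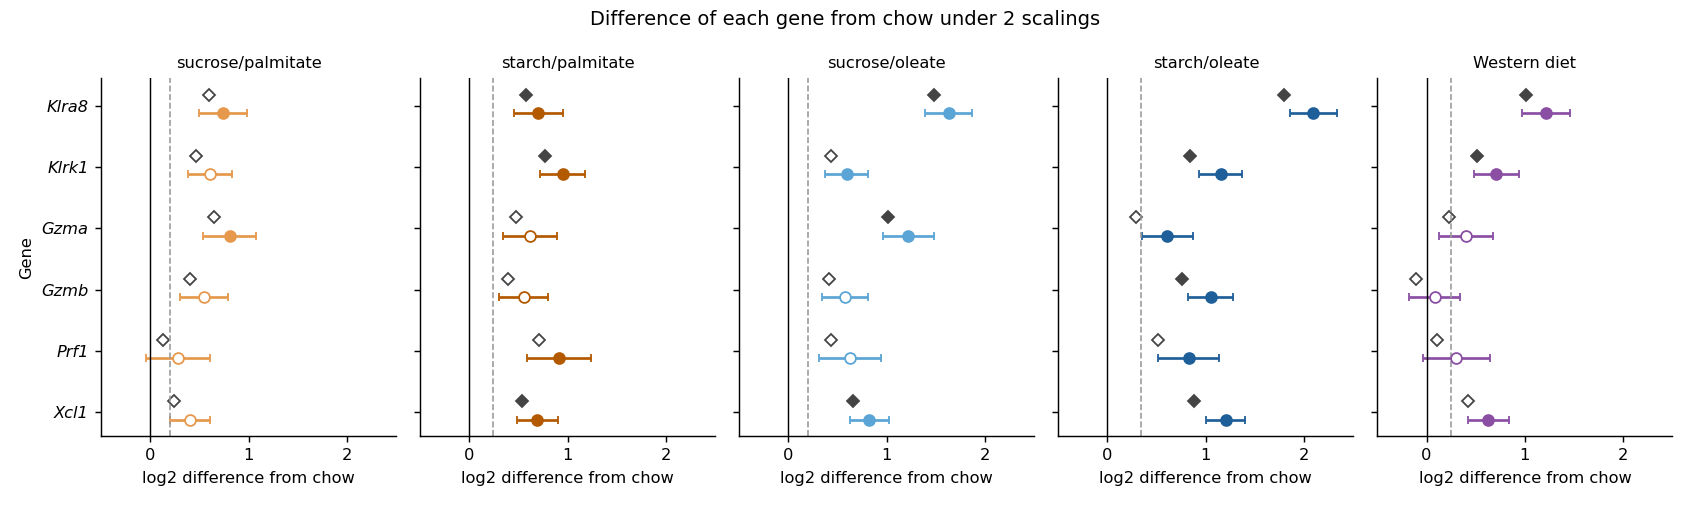
Log2 difference of each gene from chow (x axes), by feed. Circles are reference-gene scaling ± SE and diamonds TMM scaling, filled where the adjusted p was below 0.05, and the dashed line is the median of all 491 genes. All circles lie at or above 0, and the diamonds lie to the left of them.

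The levels of the 6 genes formed an order over the diets whose neighbours mostly did not differ beyond their spread. For Klra8 the order was chow, starch/palmitate, sucrose/palmitate, Western diet, sucrose/oleate, starch/oleate. Of these 5 steps, only the one from chow to starch/palmitate passed. For Klrk1 only the step from chow to the next group, sucrose/oleate, passed. No step between neighbours passed for Gzma, Gzmb, Prf1 or Xcl1. Starch/oleate had the highest mean of Klra8, Klrk1, Gzmb and Xcl1, while the mean of Gzma was highest on sucrose/oleate and that of Prf1 on starch/palmitate. By the median, Gzma was again highest on sucrose/oleate, but Prf1 on starch/oleate (18.1, against 12.9 on starch/palmitate, where replicate 3 held the 46.1).

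The custom feeds separate the fat from the carbohydrate. Oleate against palmitate, over both carbohydrates, raised Klra8 by 1.14 ± 0.17 (log2, adjusted p = 4.81e-06, 95% interval 0.81 to 1.47) and Xcl1 by 0.47 ± 0.14 (adjusted p = 0.00832, 0.20 to 0.74), which is 2 of 6 genes against a background of 23.6%. Both calls held under TMM (1.05 and 0.38), after adjustment for the positive-control ratio (1.10 and 0.44) and without each of the 48 libraries in turn. For the other 4 genes the differences did not pass, with 95% intervals of -0.20 to 0.39 for Klrk1, -0.15 to 0.56 for Gzma, -0.05 to 0.58 for Gzmb and -0.29 to 0.55 for Prf1. Within sucrose, Klra8 alone among the 6 rose with oleate, by 0.89 ± 0.23 (adjusted p = 0.0284; background 1.43%). That call was lost without sucrose/palmitate replicates 3, 4 or 8 or sucrose/oleate replicates 1, 4 or 8 (0.81 to 0.88), and after adjustment for the positive-control ratio (0.68, adjusted p = 0.327). Within starch, Klra8 rose by 1.39 ± 0.24 (adjusted p = 4.81e-05) and Xcl1 by 0.51 ± 0.20 (adjusted p = 0.0427), 2 of 6 against a background of 24.2%. The Xcl1 call was lost under TMM (0.35, adjusted p = 0.0987) and without starch/palmitate replicates 1, 2, 5 or 7 or starch/oleate replicates 2, 3, 5, 7 or 8 (0.43 to 0.52). In each carbohydrate 8 of 9 oleate pads held more Klra8 than every palmitate pad.

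Starch against sucrose, over both fats, moved 1 of 6 genes: Klrk1 rose by 0.45 ± 0.15 (adjusted p = 0.0493; background 5.91%). Leaving out any of 34 of the 48 libraries ended that call, and without starch/palmitate replicate 3 the difference was 0.34 (adjusted p = 0.157). Gzma differed by -0.40 ± 0.18 (adjusted p = 0.158) and was the only one of the 6 with a fitted value below 0. Without sucrose/oleate replicate 2 it was -0.23 (adjusted p = 0.345). Within palmitate (background 1.43% higher) and within oleate (background 9.98% higher), none of the 6 passed. No interaction of carbohydrate and fat passed for any of them, against 5.5% of all genes, with Klra8 at 0.50 ± 0.33 (adjusted p = 0.423).

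**Figure D3:**
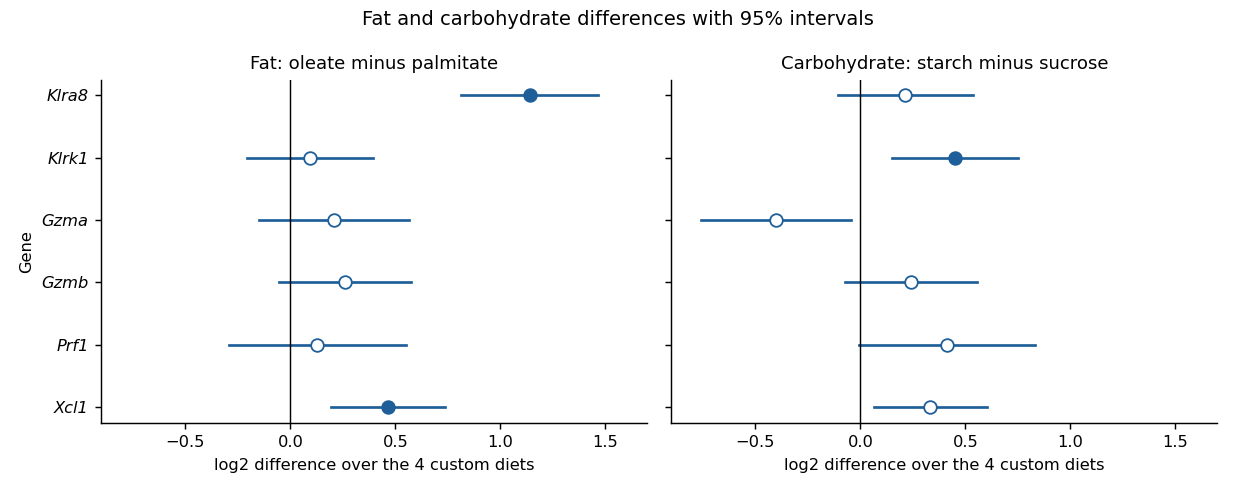
Log2 difference over the 4 custom feeds (x axes) for oleate minus palmitate and starch minus sucrose. Points are the fitted differences, lines their 95% intervals, and filled points passed the test. Klra8 and Xcl1 lie to the right of 0 for fat, and Klrk1 for carbohydrate.

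Between the Western diet and sucrose/palmitate none of the 6 genes passed (background 2.65% higher and 3.46% lower). Against starch/oleate, a comparison added after the data were seen, 3 of 6 were lower on the Western diet (background 10.4% lower): Klra8 by -0.88 ± 0.24 (adjusted p = 0.00975), Gzmb by -0.97 ± 0.24 (adjusted p = 0.00512) and Xcl1 by -0.57 ± 0.20 (adjusted p = 0.0424). Of the 7 Western diet pads, 5, 6 and 4 lay below the lowest starch/oleate pad for these genes. All 3 calls were lost after adjustment for the positive-control ratio (-0.73, -0.78 and -0.45, adjusted p = 0.0880, 0.0728 and 0.230). Xcl1 was also lost without starch/oleate replicates 2, 3, 5, 7 or 8 or Western diet replicates 1, 2, 3 or 6 (-0.58 to -0.49).

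The ratio of both receptor probes is given here without a test. The ratio of the Klra8 to the Klrk1 count in the same pad needs no scaling between libraries, and, as different probes, only its order across pads can be read. Its median was 0.914 on chow (0.605 to 1.4), 1.05 on sucrose/palmitate (0.744 to 1.51) and 0.693 on starch/palmitate (0.405 to 1.79). On sucrose/oleate it was 2.07 (1.34 to 2.9), on starch/oleate 2.07 (1.41 to 2.39) and on the Western diet 1.58 (0.939 to 1.77). All starch/oleate pads and most sucrose/oleate pads thus lay above the highest chow pad, though on starch/oleate only by 1.41 against 1.4. The Western diet median and the highest pad of each palmitate feed also lay above it. Klra8 over Klrd1 also lay above every chow pad (at most 0.553) on sucrose/oleate (from 0.554) and starch/oleate (from 0.647). Klra8 over the macrophage marker Emr1, over Xcl1 and over the T cell marker Cd3e overlapped chow on both. Over Emr1 its median was 0.0231 on chow (0.0166 to 0.0356), 0.0318 on sucrose/oleate (0.0278 to 0.038) and 0.0366 on starch/oleate (0.0217 to 0.047).

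**Figure D4:**
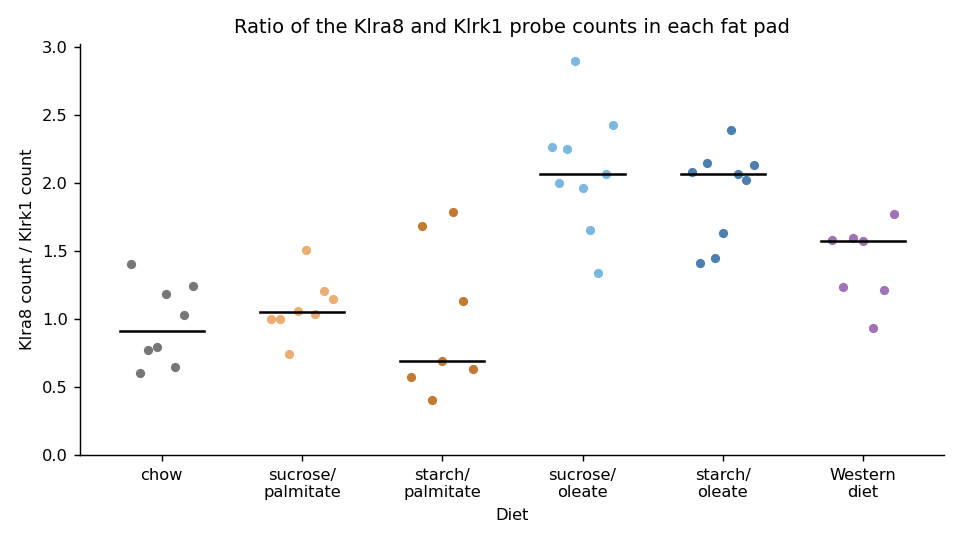
Klra8 count divided by Klrk1 count (y axis, a ratio) in each fat pad (points), by diet (x axis), with the group median as a bar. The medians on both oleate feeds are 2.07, against 0.914 on chow.

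Few other natural killer receptors passed. Of 11 tested, none passed on sucrose/palmitate, and the numbers higher and lower than chow were 2 and 1 on starch/palmitate, 2 and 1 on sucrose/oleate, 4 and 1 on starch/oleate and 1 and 1 on the Western diet. None of these shares that were higher exceeded the 14.9%, 20.6%, 28.9%, 48.3% and 32.8% of all genes that were higher on the 5 feeds. Klrd1 (CD94) and Klrc1 (NKG2A), which pair as an inhibitory receptor, rose on sucrose/oleate by 0.73 ± 0.19 (adjusted p = 0.00223) and 0.93 ± 0.24 (adjusted p = 0.00196), and on starch/oleate by 0.94 ± 0.19 (adjusted p = 4.68e-05) and 0.99 ± 0.24 (adjusted p = 0.000389). With oleate against palmitate they rose by 0.48 ± 0.14 (adjusted p = 0.00546) and 0.47 ± 0.17 (adjusted p = 0.0269). Tigit, an inhibitory receptor of natural killer and T cells, rose by 1.56 ± 0.32 on starch/palmitate (adjusted p = 0.000549) and with starch against sucrose by 1.05 ± 0.21 (adjusted p = 0.000777). Kir3dl1 was lower than chow on 4 of the 5 feeds, by -1.53 ± 0.34 on starch/oleate (adjusted p = 0.000156) and -1.79 ± 0.38 on the Western diet (adjusted p = 0.000232). Klrb1 stayed at group means of 2.1 to 3.5, below the negative control mean.

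Of 9 adaptors and kinases that carry these receptors' signals, 5 were higher with oleate than palmitate and 4 did not pass, against 23.6% of all genes. On sucrose/palmitate, starch/palmitate, sucrose/oleate, starch/oleate and the Western diet, 0, 3, 7, 8 and 4 of the 9 were higher than chow, where 14.9%, 20.6%, 28.9%, 48.3% and 32.8% of all genes were. Their median differences from chow were 0.304, 0.446, 0.633, 0.907 and 0.511. Tyrobp, the partner of Klra8, rose by 1.11 ± 0.27 (adjusted p = 0.00114) on sucrose/oleate, 1.52 ± 0.27 (adjusted p = 7.84e-06) on starch/oleate and 0.89 ± 0.28 (adjusted p = 0.00989) on the Western diet, and by 0.72 ± 0.19 with oleate against palmitate (adjusted p = 0.00365). Hcst, the partner of Klrk1, rose by 0.49 ± 0.14 with oleate (adjusted p = 0.00561). Tyrobp, Fcer1g and Syk are also made by macrophages. The macrophage marker Emr1 (F4/80) rose on all 5 feeds, by 0.71, 0.88, 1.14, 1.52 and 1.26 (on sucrose/palmitate not under TMM, adjusted p = 0.0819). With oleate Emr1 rose by 0.53 ± 0.18 (adjusted p = 0.0191). Other macrophage markers went the other way. Cd163 passed as lower than chow on sucrose/oleate (-0.97), starch/oleate (-1.20) and the Western diet (-1.33). Marco passed as lower on sucrose/oleate (-2.06) and the Western diet (-1.46), but not on starch/oleate (0.01).

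Few other effector genes passed. Of 7 further effectors, 1, 0, 1, 2 and 1 were higher than chow over the 5 feeds in the same order, namely Ltb and Tnf, below the share of all genes on each feed. Ifng, which encodes interferon gamma, differed from chow by -0.16 to 0.15 on the 5 feeds and did not pass on any. Among 15 cytokines and receptors that act on natural killer cells, 2, 3, 4, 6 and 1 were higher, and 1 was lower on each oleate feed. Over all genes 14.9%, 20.6%, 28.9%, 48.3% and 32.8% were higher, a larger share than in this list on each feed. On sucrose/oleate and starch/oleate 7.74% and 12% of all genes were lower. Il12rb2, a subunit of the interleukin 12 receptor, rose by 1.71 ± 0.21 (adjusted p = 8.76e-09) on starch/oleate and 0.82 ± 0.15 with oleate against palmitate (adjusted p = 4.53e-05). Of 11 chemokines and receptors for natural killer cells, 4, 9, 4, 8 and 7 were higher than chow, a larger share than of all genes on each feed. None of them passed between the fats, where 23.6% of all genes were higher with oleate. Cxcl10 rose by 1.12, 2.01, 1.31, 1.69 and 1.76, in the same order of feeds. Of 8 transcription factors of natural killer cells, 1, 2, 0, 3 and 3 were higher, near or below the shares of all genes. On the same feeds 0, 1, 1, 1 and 0 were lower, against 2.24%, 4.68%, 7.74%, 12% and 7.94% of all genes.

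Markers of other cells also passed on these feeds, and their part in the results was not tested. Of 16 T cell markers, 1, 7, 5, 10 and 5 were higher than chow, against 14.9%, 20.6%, 28.9%, 48.3% and 32.8% of all genes, and none passed between oleate and palmitate. Their summed scaled counts ran from 425 to 708 in chow pads. The sums were 601 to 971 with sucrose/palmitate, 574 to 954 with sucrose/oleate, 536 to 1250 with starch/palmitate, 672 to 1398 with starch/oleate and 618 to 1705 with the Western diet. Cd3e rose by 1.25 ± 0.34 on starch/palmitate (adjusted p = 0.00645) and 1.32 ± 0.33 on starch/oleate (adjusted p = 0.000607), and Cd8b1 by 1.43 and 1.46. Cd4 and Cd8a rose on starch/oleate by 1.23 (adjusted p = 3.21e-05) and 0.96 (adjusted p = 0.00868). On sucrose/oleate Cd8b1 passed (0.92, adjusted p = 0.0276), but not Cd8a (0.34, adjusted p = 0.444) or Cd4 (-0.01, adjusted p = 0.974). Cd8b1 and Cd8a exceeded the highest negative control of their own library in only 33 and 15 of 48 libraries. With starch against sucrose, Cd8b1 rose by 0.69 (adjusted p = 0.0469) and 4 of the 16 T cell markers passed. Of all 491 genes, 49 passed in that comparison, 29 higher and 20 lower. Of 8 macrophage markers, 3, 4, 4, 6 and 4 were higher than chow and 0, 1, 2, 1 and 2 lower, with sums of 4028 to 11960 on chow and 13870 to 23940 on starch/oleate. Of 13 B cell and lymph node markers, 7, 2, 3, 11 and 7 were higher, and of 3 mast cell markers 1, 0, 1, 3 and 3. Of 3 adipocyte markers, 3 fell on both palmitate feeds and the Western diet and 2 on each oleate feed, where Cd36 did not pass (-0.16, adjusted p = 0.373, with sucrose and -0.27, adjusted p = 0.0984, with starch). Under TMM Cd36 passed there too (adjusted p = 0.0429 and 0.000302). Cfd (adipsin) fell on all 5 feeds, by -1.25, -1.92, -2.37, -4.11 and -3.38, from a chow mean of 71230, and Pparg by -0.56, -0.65, -0.76, -1.49 and -0.79.

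Between pads of the same diet, Klra8 was most like genes of myeloid and mixed immune cells. Over 48 pads with the diet mean removed, the genes most like Klra8 were Slamf7 (r = 0.842), Lair1 (0.795) and Trem2 (0.786). Among a few marker genes chosen by hand, its correlation was highest with Tyrobp (0.785) and Emr1 (0.704). Its correlation was 0.581 with Klrd1. With the T cell markers Cd3e, Cd4, Cd8a and Cd8b1 it was 0.267, 0.439, 0.308 and 0.375. Slamf7 and Lair1 encode receptors found on several immune cells and Trem2 a receptor of macrophages. Those most like Klrk1 were Cd74 (0.819), H2-Aa (0.80) and Klrd1 (0.796). The correlations of Klrk1 with Cd3e, Cd4, Cd8a and Cd8b1 were 0.51, 0.472, 0.487 and 0.714. Xcl1 was most like Klrc1 (0.735), Il2rb (0.729) and Klrk1 (0.697).

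Prf1 was most like the antigen-processing genes Tap1 (0.742) and Psmb9 (0.721) and the chemokine Cxcl9 (0.718). By Pearson's r, Gzma was most like Ccl19 (0.642), Tnfsf10 (0.629) and Prf1 (0.591), and Gzmb like Spn (0.552), Fcgr4 (0.511) and Card9 (0.508). By rank (Spearman) these were lower, at 0.542, 0.462 and 0.528 for Gzma and 0.433, 0.353 and 0.387 for Gzmb. By rank Gzma was nearer to Klrc1 (0.504) than to Tnfsf10, and Gzmb nearer to Emr1 (0.398) than to Fcgr4 or Card9. The 15 pairs among the 6 genes had correlations of 0.265 (Klra8 with Gzma) to 0.697 (Klrk1 with Xcl1), with a median of 0.415, against 0.12 over 120295 pairs of tested genes. All values of a pad share its library and scaling, so these are descriptions. The lower values of Gzmb rest on counts close to the negative controls.

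**Figure D5:**
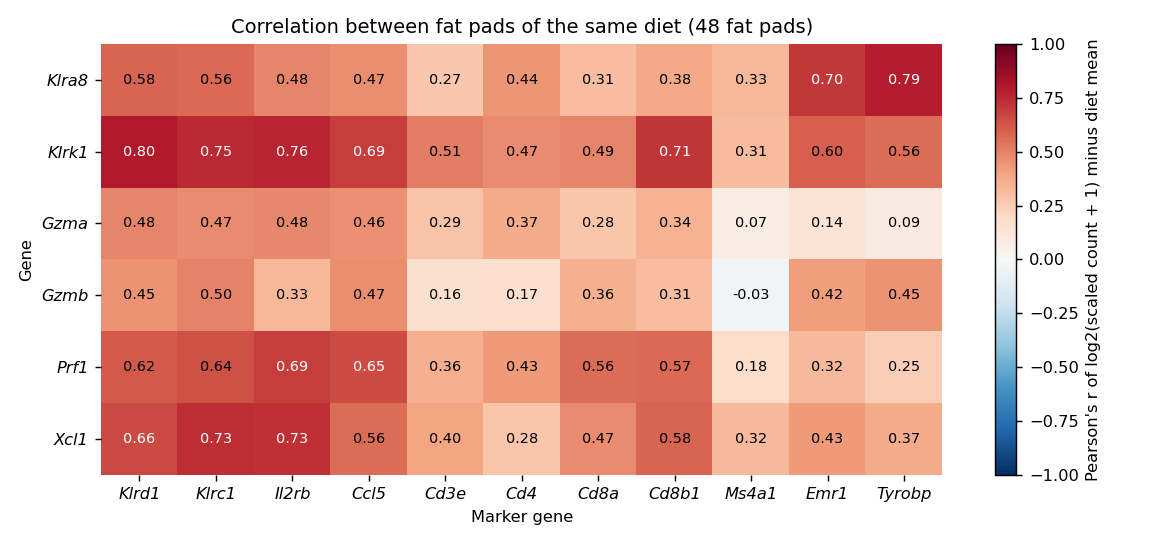
Pearson's r between each of the 6 genes (rows) and markers of natural killer, T, B and myeloid cells (columns), over 48 fat pads with the diet mean removed from log2(scaled count + 1). The colour scale is r. Klra8 is highest with Tyrobp (0.785), and Klrk1 with Klrd1 (0.796).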

How the data were processed

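The files held whole-number probe counts deposited by the authors, 1 table of 547 endogenous, 14 reference, 8 negative and 6 positive control probes in 48 libraries, with no background subtraction or scaling, as the values themselves show. The authors' counting settings are not given in the sources used here. Members and gene lists were chosen with earlier results of these data known.

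Counts were tested with edgeR 4.0.16 (R 4.3.3), by the quasi-likelihood test in 1 fit of all 48 libraries with a mean per diet, with library sizes set by the 14 reference genes (geometric mean). The 491 genes averaging 10 or more counts were tested, with Benjamini-Hochberg adjustment over them and a threshold of 0.05. Of 14 comparisons, the Western diet against starch/oleate was added after the data were seen. A scaled count is a count divided by its library's reference-gene level relative to the mean of all libraries. Alternatives were TMM, no filter, a minimum mean of 30, a replicate block, only the compared groups, DESeq2 1.42.0, the positive-control ratio as a covariate, and libraries left out. The method was tested on simulated data.

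The text names the 6 genes, the 3 genes most correlated with each, up to 3 passing genes with the smallest adjusted p per natural killer list and comparison, and set T cell, adipocyte and macrophage markers. Hcst, Cd36, Xcr1, Ifng, Klrb1, Klra7, Cd163, Marco and values of named genes in further comparisons were picked after their values were seen. Same-numbered replicates of different diets did not vary together (mean r of -0.016 over 112 pairs), so numbers do not pair samples.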

Additional observations from a re-analysis of the deposited data

Results flagged for a closer look

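Of 36 sets of values (6 genes in 6 diets) examined for a single pad far from the rest by Dixon's test at the 95% level, 3 held one, where chance gives about 1 in 20. Gzma was 179 in sucrose/oleate replicate 2, with the next pad at 103. Klrk1 was 98.0 in sucrose/oleate replicate 7, with the next at 71.0. Gzmb was 25.5 in sucrose/palmitate replicate 5, with the next at 15.02.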

How the results depend on the processing

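No difference of the 6 genes that passed changed its sign under any alternative. Of 19 passing differences from chow, 12 still passed under TMM, 19 without the filter, 16 of the 16 still tested at a minimum mean of 30, 18 with the replicate block, 15 with only the compared groups, 8 after adding the positive-control ratio as a covariate, 18 without the libraries high in epithelial genes and 19 by DESeq2. The number of genes passing on sucrose/palmitate, 2, became 0 under TMM, with only the compared groups and with the covariate, and 0 to 4 leaving out single libraries. On starch/palmitate 4 became 0 with the covariate (2 to 5 leaving out libraries), on sucrose/oleate 4 became 1 (3 to 6), and leaving out libraries gave 2 to 3 for the Western diet and 5 to 6 for starch/oleate. On starch/oleate 6 became 4 under TMM and 4 with the covariate, both without Gzma and Prf1, and Xcl1 was lost on the Western diet under TMM. For oleate against palmitate it was 2 throughout the libraries left out. For starch against sucrose 1 became 0 without the filter, with the replicate block, with only the compared groups, with the covariate and without the epithelial libraries (0 to 1 leaving out single libraries). Oleate within sucrose went from 1 to 0 with the block and the covariate (0 to 1), and within starch from 2 to 1 under TMM, with the block and with only the compared groups (1 to 3). Starch within oleate went from 0 to 1 under TMM, with the covariate, without the epithelial libraries and by DESeq2, and to 3 with only the compared groups (0 to 2). The Western diet against starch/oleate went from 3 to 0 with the covariate and to 2 with the block, with only the compared groups and without the epithelial libraries (2 to 3). The cause was not tested. Over all genes, the 84 calls on sucrose/palmitate became 13 with only the compared groups, 55 with the block and 40 with the covariate, and the covariate took starch/palmitate from 124 to 2, sucrose/oleate from 180 to 31 and the interaction from 27 to 0. No library stood apart in B cell and lymph node genes, so that alternative was not run. With negative controls subtracted, an alternative chosen after seeing the data, Klra8 differed from chow by 0.85, 0.81, 1.84, 2.32 and 1.39 (log2). The dim genes Gzmb and Prf1 moved by over 1.5 times, for example Gzmb on starch/oleate to 3.48, and Prf1 to 2.08 on starch/oleate and 2.12 on starch/palmitate, from chow means of 0.962 and 2.62 counts. Counts near the negative controls limit Gzmb and Prf1.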
